A study of Mus musculus with 6 samples.

Results

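Fgf21, Fgf1, Klb and the FGF receptors Fgfr1, Fgfr2, Fgfr3 and Fgfr4 were taken by gene name from the deposited expression table, which gave 7 of its 25718 genes. Fgf21 was chosen because its level differed strongly between the genotypes in this same comparison, and the other 6 genes by name, as its co-receptor, the FGF receptors and a second FGF ligand of liver cells. Their differences between the genotypes are therefore descriptions and carry no test. RNA was sequenced from primary hepatocytes (parenchymal liver cells) isolated by collagenase perfusion and a Percoll step from alcohol-fed WT mice (3 libraries) and alcohol-fed S100a16KO+/- mice (3 libraries). S100A16 is a small calcium-binding protein of the S100 family. Exons 2 to 3 of S100a16 were floxed and deleted with the EIIa-Cre line, so the loss is not limited to hepatocytes, and heterozygous mice were used because the homozygous deletion is lethal. The labels name the genotype a knockdown, and the study's name for it is used here. The mice were males of 8 to 10 weeks on a background over 98% C57BL/6. Both genotypes received 5 days of control liquid diet, 10 days of a liquid diet with 5% ethanol by volume and, on day 11, a single ethanol gavage (5 g/kg) given 9 h ahead of collection. The effect of alcohol itself was not analysed here, since both genotypes had received it.

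FGF21 is a hormone-like fibroblast growth factor secreted mainly by the liver. It signals through FGF receptors, chiefly FGFR1, only where the membrane protein β-klotho (KLB) is present as co-receptor, whereas FGFR4 with KLB receives the intestinal hormone FGF15 and holds back bile acid synthesis. FGF1 binds all FGF receptors and needs heparan sulfate in place of a klotho protein. In hepatocytes Fgf21 transcription is known to respond to fasting through PPARα, to the integrated stress response through ATF4 and to sugars through ChREBP.

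Promoter sequences are shown for the ligand with the largest difference between the genotypes, for the co-receptor whose libraries overlapped, and for 1 receptor that was higher and 1 that was lower in S100a16KO+/-. They come from RefSeq on GRCm38.p6, run from 250 bases before to 50 bases after the annotated transcription start and are written 5′ to 3′ on the strand of the gene. Capitals mark matches, on either strand, to the motifs described after them. The windows lie at chr7:45615441-45615740 (minus strand) for Fgf21, at chr5:65348161-65348460 (plus strand) for Klb, at chr7:130266759-130267058 (minus strand) for Fgfr2 and at chr5:33721474-33721773 (plus strand) for Fgfr3.
Fgf21: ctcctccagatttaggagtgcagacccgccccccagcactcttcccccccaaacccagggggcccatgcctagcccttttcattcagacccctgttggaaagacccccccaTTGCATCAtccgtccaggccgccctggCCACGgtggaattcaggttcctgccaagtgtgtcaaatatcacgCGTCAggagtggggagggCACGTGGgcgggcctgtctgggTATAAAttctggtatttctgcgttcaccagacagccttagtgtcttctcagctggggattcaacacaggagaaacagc
Klb: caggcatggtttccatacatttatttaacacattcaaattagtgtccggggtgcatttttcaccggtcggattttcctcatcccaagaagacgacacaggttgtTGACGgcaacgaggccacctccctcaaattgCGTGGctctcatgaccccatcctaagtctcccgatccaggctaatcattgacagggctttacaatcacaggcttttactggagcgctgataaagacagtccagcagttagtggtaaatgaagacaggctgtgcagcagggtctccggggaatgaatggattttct
Fgfr2: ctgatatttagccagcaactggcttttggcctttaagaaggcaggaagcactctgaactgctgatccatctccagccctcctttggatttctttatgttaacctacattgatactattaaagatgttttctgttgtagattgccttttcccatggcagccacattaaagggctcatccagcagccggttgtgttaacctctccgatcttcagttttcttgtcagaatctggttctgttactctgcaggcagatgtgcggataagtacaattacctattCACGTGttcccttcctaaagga
Fgfr3: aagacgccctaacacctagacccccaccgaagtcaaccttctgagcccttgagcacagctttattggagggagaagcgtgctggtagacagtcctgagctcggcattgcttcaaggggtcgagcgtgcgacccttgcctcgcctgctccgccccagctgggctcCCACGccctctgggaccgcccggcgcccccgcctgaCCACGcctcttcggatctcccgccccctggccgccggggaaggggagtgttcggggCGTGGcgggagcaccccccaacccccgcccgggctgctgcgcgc

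Among motifs that include sites of factors known to act on Fgf21, the Fgf21 window held the most matches of the windows of these genes. Its TTGCATCA, at -139 to -132 counted from the start as 0, is the reverse strand of TGATGNAA, the composite element for ATF4 and C/EBP factors. Among 32851 promoter windows of the same length, 3.97% held this element, and of the 5 genes of the set with a window (6 windows) Fgf21 alone held it. The E-box CACGTG, found in 7.15% of all windows, stood at -50 to -45 in Fgf21 and at 28 to 33, past the start, in Fgfr2. The cAMP response element half-site TGACG (20.8% of windows) occurred at -68 to -64 in Fgf21, on the reverse strand, and at -146 to -142 in Klb. The ATF6 half-site CCACG is common, at 32.8% of windows, and was present in the windows of Fgf21, Klb, Fgfr3 and Fgfr4, but 1 of its 2 matches in Fgf21 shares bases with the E-box. A TATA box, TATAAA (13.6% of windows), lay at -28 to -23 in Fgf21 and in no other window of the set. The nuclear receptor half-site AGGTCA (16.3%) and the D-box TTATGTAA (0.938%) were searched as well and had no match in the 6 windows. The windows ranged from 43.7% G and C in Fgfr2 to 73.0% in the second start of Fgfr3, against a median of 52.7% over all windows. These are matches of letters and were not tested as binding sites, and nothing is read from their number.

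The libraries held between 67658095 and 71807834 estimated counts, in which 1 sequenced fragment is worth about 4 counts. Nothing in the labels says how the 3 libraries of a genotype relate to animals or cultures, so p-values measure the spread between these libraries. S100a16, the targeted gene, was at 8.43 ± 0.711 FPKM (SD, n = 3) in WT and 3.20 ± 0.302 in S100a16KO+/-, or 38.0% of the WT mean, with no overlap. WT replicate 1 and S100a16KO+/- replicate 2 stood apart from the other 4 libraries on the second principal component (12.8% of the variance), and values without both are given where they matter. Summed hepatocyte markers were at 49560 to 50580 FPKM in WT and 48740 to 49470 in S100a16KO+/-, so the labelled cell type was present in every library. By edgeR's quasi-likelihood test with Benjamini-Hochberg adjustment, 3643 of 15957 tested genes differed at an adjusted p under 0.05, which is 22.8% in either direction, 11.6% higher and 11.2% lower in S100a16KO+/-. Among tested genes with a mean of at least 1 FPKM, 32.7% differed.

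Fgf21 was the most abundant of the 7 genes in alcohol-fed WT hepatocytes and was lower in every S100a16KO+/- library. Its level was 106.1, 94.7 and 96.5 FPKM (fragments per kilobase of transcript, scaled to library depth) in the 3 WT libraries, against 7.21, 8.03 and 6.27 FPKM in S100a16KO+/-. The lowest WT library was far above the highest S100a16KO+/- library, and replicates lay close together. The means were 99.1 ± 6.12 and 7.17 ± 0.881 FPKM (SD, n = 3), a 13.8-fold difference in linear FPKM, and the fitted log2 fold change was -3.80 (SE 0.13, 95% interval -4.10 to -3.49). Depth was not limiting, as the estimated counts were 8125, 6870 and 6919 in WT and 520, 579 and 461 in S100a16KO+/-, all well above the 12 counts that a gene at 0 could have. Among all tested genes, 11 had a log2 fold change at or below that of Fgf21, Fgf21 included, and among those with a mean of at least 1 FPKM, 4. In order of FPKM in the whole table, Fgf21 took place 313 to 364 in WT, and place 2462 to 3206 in S100a16KO+/-. In bulk RNA, fewer cells that make a transcript and less of it per cell cannot be told apart. The gene lies at chr7:45613886-45615490 on the minus strand of GRCm38 (ENSMUSG00000030827), has 1 annotated transcript with 3 exons and 951 exon bases, and overlaps no other annotated gene, so its reads have no second annotated source at that place.

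**Figure D1:**
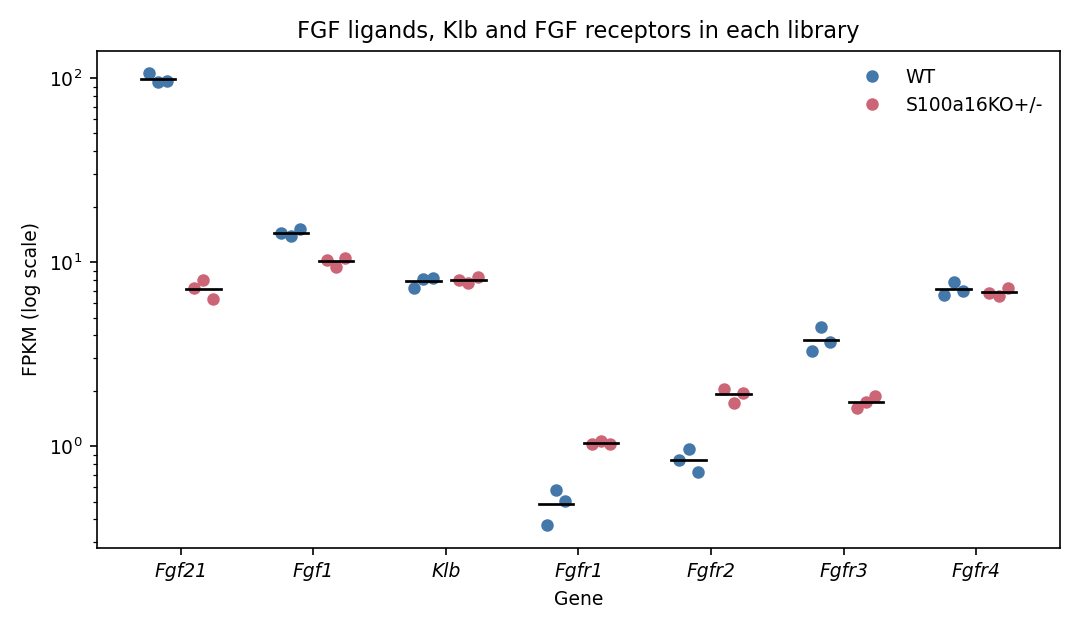
Level of each gene in FPKM on a log axis, with 1 point per library (WT blue, S100a16KO+/- red, n = 3 each) and a line at the mean. Fgf21 sits between 94.7 and 106.1 FPKM in WT and between 6.27 and 8.03 FPKM in S100a16KO+/-, while the points of Klb and of Fgfr4 overlap between the genotypes.

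Fgf1, the second ligand, was also lower in S100a16KO+/-, by a much smaller amount. WT libraries were at 14.4, 13.8 and 15.2 FPKM and S100a16KO+/- libraries at 10.3, 9.44 and 10.5 FPKM. The genotypes did not overlap. The means were 14.5 ± 0.675 and 10.1 ± 0.575 FPKM (SD, n = 3), 1.43-fold apart, with a fitted log2 fold change of -0.53 (SE 0.06). Fgf1 has 11 annotated transcripts, 9 of them coding, and the table does not separate them. The ratio of Fgf21 to Fgf1 in FPKM lay between 6.37 and 7.37 for WT and between 0.595 and 0.850 for S100a16KO+/-. Fgf21 was thus the more abundant ligand transcript in every WT library and Fgf1 in every S100a16KO+/- library.

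Klb, the co-receptor without which FGF21 does not signal, overlapped between the genotypes. Its FPKM was 7.25, 8.15 and 8.17 in WT and 8.03, 7.74 and 8.26 in S100a16KO+/-. Its lowest and highest values came from WT replicate 1 and S100a16KO+/- replicate 3. The means were 7.86 ± 0.525 and 8.01 ± 0.262 FPKM (SD, n = 3). The fitted log2 fold change was 0.022 (SE 0.056) with a 95% interval from -0.10 to 0.14, so a difference of the size seen for Fgf1 lies outside it. Klb (ENSMUSG00000029195, chr5:65348314-65384007, plus strand) shares exon bases with no other annotated gene.

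Fgfr4, the main FGF receptor of hepatocytes, also overlapped between the genotypes. It stood at 6.62, 7.83 and 6.98 FPKM in WT and at 6.83, 6.51 and 7.21 FPKM in S100a16KO+/-, with the lowest and the highest library in S100a16KO+/- replicate 2 and WT replicate 2. Its means were 7.15 ± 0.622 and 6.85 ± 0.350 FPKM (SD, n = 3), and the 95% interval of the log2 fold change of -0.07 (SE 0.07) ran from -0.21 to 0.08. The ratio of Klb to Fgfr4 in FPKM stayed between 1.04 and 1.19 in the 6 libraries.

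Fgfr3, the second most abundant receptor in WT, was lower in S100a16KO+/-. WT libraries were at 3.28, 4.42 and 3.69 FPKM, and S100a16KO+/- libraries at 1.61, 1.73 and 1.88 FPKM. The genotypes did not overlap. The means were 3.79 ± 0.577 and 1.74 ± 0.136 FPKM (SD, n = 3), 2.18-fold apart, with a log2 fold change of -1.12 (SE 0.10). Fgfr3 (chr5:33721674-33737068, plus strand) shares 998 exon bases, or 13.9% of its exon length, with G630022F23Rik on the opposite strand, and whether the counting used strand is not given in the sources used here.

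Fgfr2 and Fgfr1 were the least abundant receptors in WT, and both were higher in S100a16KO+/-. Fgfr2, whose splice forms receive FGFs in epithelia or mesenchyme, was at 0.839, 0.965 and 0.721 FPKM in WT and 2.05, 1.73 and 1.95 FPKM in S100a16KO+/-. The genotypes did not overlap. The means were 0.842 ± 0.122 and 1.91 ± 0.167 FPKM (SD, n = 3), 2.27-fold apart, with a log2 fold change of 1.16 (SE 0.11). The span of Fgfr2 (chr7:130162451-133123350, minus strand) covers 69 other annotated genes, of which Ctbp2 shares 314 exon bases with it on the same strand. Ctbp2 itself had a log2 fold change of 0.52 (SE 0.32, edgeR adjusted p = 0.280). Fgfr1, the usual partner of KLB for FGF21, was at 0.372, 0.581 and 0.507 FPKM in WT and 1.03, 1.07 and 1.03 FPKM in S100a16KO+/-. The genotypes did not overlap, and the S100a16KO+/- libraries were closer together. The means were 0.487 ± 0.106 and 1.04 ± 0.0226 FPKM (SD, n = 3), 2.14-fold apart, with a log2 fold change of 1.10 (SE 0.14). Its estimated counts were 300, 442 and 381 in WT and 777, 806 and 793 in S100a16KO+/-, about 4 counts to a fragment, and it is the member with the least depth. Without the libraries that stood apart the log2 fold change was 0.90.

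Markers of other liver cells moved in the same direction as Fgfr1 and Fgfr2, which those cells can also express. Summed stellate cell markers were at 4.95 to 5.07 FPKM in WT and 9.17 to 9.62 FPKM in S100a16KO+/-, with 3 of 7 higher (Dcn, Lrat, Reln). Summed endothelial markers were at 29.9 to 33.3 and 43.0 to 44.8 FPKM, with 5 of 6 higher and Lyve1 lower. None of these markers was at 0 in all libraries. Kupffer cell markers summed to 30.5 to 36.8 and 36.0 to 40.2 FPKM (2 of 6 higher), cholangiocyte markers to 1.68 to 2.40 and 2.03 to 2.50 FPKM (Sox9 lower, of 4 tested), and lymphocyte markers to 0.535 to 0.787 and 0.538 to 0.953 FPKM (1 of 4 lower). Of the hepatocyte markers, 2 of 7 were lower (Cyp2e1 and Ttr). The part of these cells in the receptor values was not tested.

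Of the 7 genes, 5 passed an adjusted p of 0.05 in the count comparison, 2 higher and 3 lower, against 22.8% of all tested genes. The same 5 did not overlap between the genotypes in depth-scaled counts (CPM), which held for 37.9% of all tested genes. Since the set was chosen on this comparison, nothing is read from these counts.

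**Figure D2:**
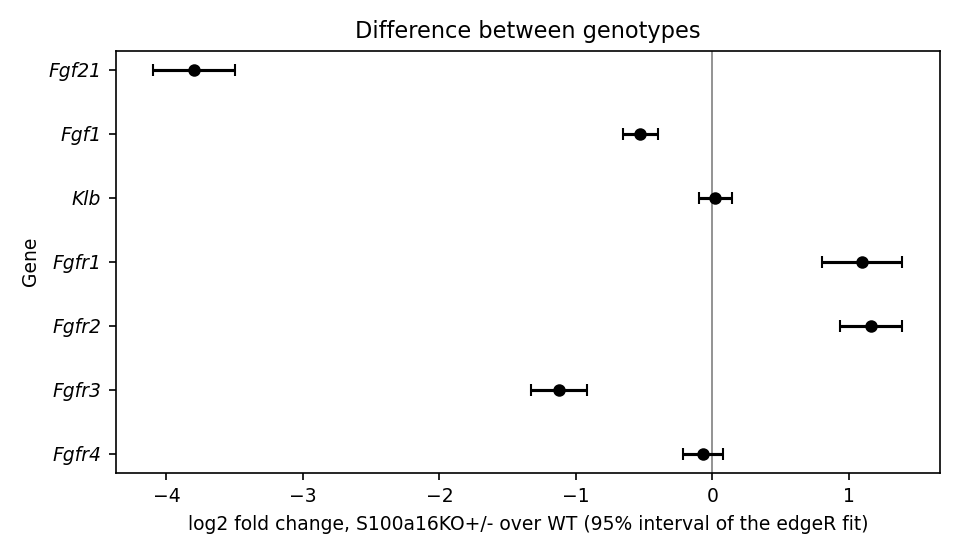
Fitted log2 fold change of each gene, S100a16KO+/- over WT, with its 95% interval from the edgeR fit over 3 libraries per genotype. Fgf21 is at -3.80, Fgf1 at -0.53 and Fgfr3 at -1.12, Fgfr1 and Fgfr2 are at 1.10 and 1.16, and the intervals of Klb and Fgfr4 include 0.

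The summed level of the 4 receptors overlapped between the genotypes while its makeup differed. It was 11.1, 13.8 and 11.9 FPKM in WT and 11.5, 11.04 and 12.1 FPKM in S100a16KO+/-, with means of 12.3 ± 1.38 and 11.5 ± 0.518 FPKM (SD, n = 3). Fgfr4 made up 58.4% ± 1.44 of it in WT and 59.3% ± 0.374 in S100a16KO+/-. Fgfr3 made up 30.8% ± 1.27 in WT and 15.1% ± 0.964 in S100a16KO+/-. Fgfr2 went from 6.87% ± 0.754 to 16.5% ± 1.14, and Fgfr1 from 3.94% ± 0.513 to 9.06% ± 0.578. For each of Fgfr1, Fgfr2 and Fgfr3, the shares of the genotypes did not overlap. In S100a16KO+/- libraries Fgfr2 and Fgfr3 were thus close in share, and neither came first in all 3.

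**Figure D3:**
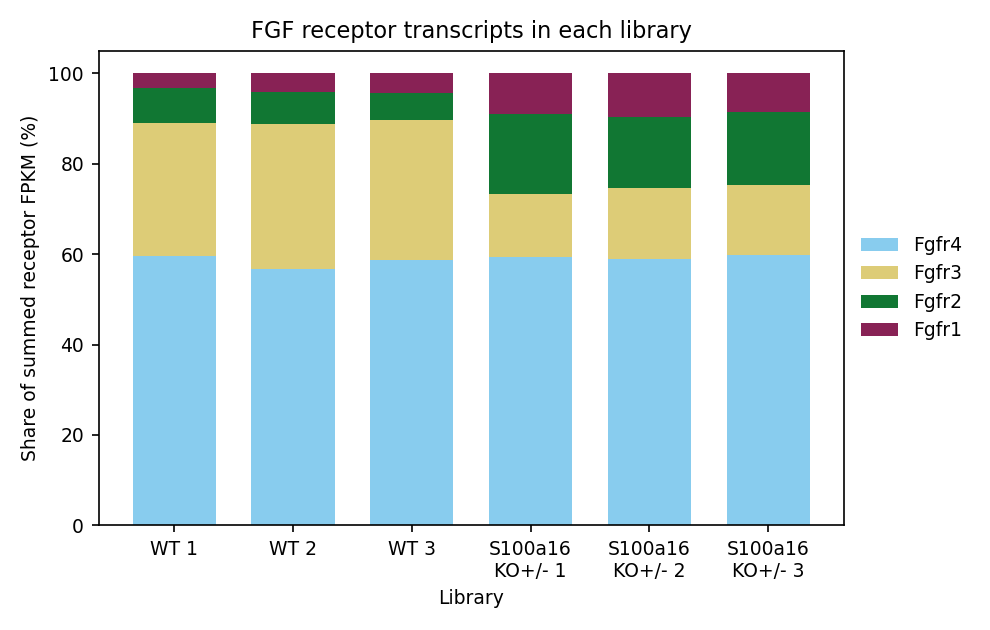
Stacked bars of the share of each receptor in the summed FPKM of Fgfr1 to Fgfr4, in percent, with 1 bar per library. The Fgfr4 block stays between 56.8% and 59.7%, the Fgfr3 block is 29.5% to 32.0% in WT and 14.0% to 15.7% in S100a16KO+/-, and the blocks of Fgfr2 and Fgfr1 are wider in S100a16KO+/-.

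The order of the 7 levels in FPKM was the same in each WT library, namely Fgf21, Fgf1, Klb, Fgfr4, Fgfr3, Fgfr2 and Fgfr1. Klb and Fgfr4 were neighbours in it whose ranges over libraries overlapped. In S100a16KO+/- Fgf1 was first in all 3 libraries, and Fgf21 took place 3, 2 and 4, among Klb and Fgfr4, from which its range was not separate. The genes whose pattern over the 6 libraries was nearest to that of Fgf21 were Inhbe (a liver-secreted activin subunit), Angptl8 (a liver factor that controls lipoprotein lipase), the alpha-globin genes Hba-a1 and Hba-a2, and G0s2 (an inhibitor of fat breakdown), at root mean square distances of 0.152, 0.195, 0.225, 0.240 and 0.274 on the log2 scale. The distance was taken over the 6 libraries among 11938 genes, on values centred on the WT mean. It therefore mostly follows the difference between genotypes on which Fgf21 was chosen, and no further likeness is read from it. Log2 fold changes of these genes ran from -4.00 to -3.39, beside -3.80 for Fgf21. Inhbe was at 36.4 ± 1.82 FPKM in WT and 2.54 ± 0.104 in S100a16KO+/-, Angptl8 at 137.7 ± 1.74 and 8.67 ± 0.367 FPKM, and G0s2 at 195.8 ± 8.54 and 18.8 ± 0.943 FPKM (SD, n = 3). Globin transcripts belong to red blood cells, and all 5 erythroid markers were lower in S100a16KO+/-, with sums of 260.6 to 287.9 FPKM in WT and 25.25 to 26.24 FPKM in S100a16KO+/-. Whether they bear on Fgf21 was not tested. Nearest to Klb were Igsf11, Pdcd6ip, Eef1g, Diaph1 and Trak1, at distances of 0.0166 to 0.0192.

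Other FGF ligands were scarce in these hepatocytes. Of 20 listed, 9 were in the table, 5 of these stayed at or under 12 counts in every library, and 3 passed the filter on low counts. Fgf2, a ligand for several FGF receptors, went from 0.253 ± 0.0351 to 0.404 ± 0.0885 FPKM (log2 fold change 0.67, SE 0.23, edgeR adjusted p = 0.0477), and this call was lost with any library left out except S100a16KO+/- replicate 3 (adjusted p 0.0601 to 0.239). Fgf9 and Fgf11 were at 0.0660 and 0.0579 FPKM in WT and did not pass (adjusted p = 0.208 and 0.155). The fitted median log2 fold change of the 3 was -1.73, against 0.0062 over all tested genes, but Fgf11 was at or under 12 counts in every S100a16KO+/- library, and with Fgf11 set to the limit this gives, the median was -0.23.

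Of the co-receptors, decoys and proteases, 4 of 9 listed genes were tested, with a median log2 fold change of 0.0011. Fgfrl1, a receptor-like protein without a kinase domain, fell from 9.43 ± 0.0343 to 7.67 ± 0.160 FPKM (log2 fold change -0.30, SE 0.08, edgeR adjusted p = 0.00909, but 0.051 without S100a16KO+/- replicate 3). It was more abundant in FPKM than any of the 4 signalling receptors in every WT library. Fgfbp3 and Flrt1 did not pass (adjusted p = 0.460 and 0.769).

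Heparan sulfate carriers and enzymes, which FGF1 needs for receptor binding, moved in both directions. Of 14 tested, 3 rose and 2 fell, with a median log2 fold change of 0.12. Among all tested genes with a mean of at least 1 FPKM, 32.7% differed, so nothing is read from this count. Among the syndecans, Sdc4 rose from 62.7 ± 8.28 to 85.8 ± 8.10 FPKM (log2 fold change 0.44, edgeR adjusted p = 0.000194) and Sdc3 from 3.10 ± 0.157 to 4.46 ± 0.351 FPKM (0.52, 0.000279). Sdc1 fell from 52.1 ± 4.97 to 46.1 ± 3.63 FPKM (-0.18, adjusted p = 0.0263), a call lost in 4 of the 6 fits with a library left out, those without WT replicate 2 or 3 or S100a16KO+/- replicate 2 or 3 (adjusted p 0.0628 to 0.120). Sdc2 was at 43.6 ± 1.64 and 48.9 ± 1.03 FPKM and did not pass (adjusted p = 0.0619). Ext1, which builds the heparan sulfate chain, rose from 3.07 ± 0.0506 to 3.80 ± 0.0796 FPKM (0.30, adjusted p = 0.00651). Hs6st1, a sulfotransferase, fell from 17.3 ± 0.191 to 15.1 ± 0.474 FPKM (-0.21, adjusted p = 0.0366), a call lost without WT replicate 1 or 3 or S100a16KO+/- replicate 1 or 3 (adjusted p 0.0815 to 0.158).

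Inside the cell, FGF receptors signal through adaptors, RAS and the MAP kinase cascade. Of 20 genes tested, 2 rose and 5 fell, with a median log2 fold change of -0.12. Nothing is read from this count, as 22.8% of all tested genes differed, and 32.7% of those with a mean of at least 1 FPKM. The exchange factor Sos1 fell from 2.29 ± 0.0832 to 1.68 ± 0.203 FPKM (-0.46, edgeR adjusted p = 0.00132). Sos2 went from 1.29 ± 0.0237 to 0.956 ± 0.220 FPKM (-0.45, adjusted p = 0.0170), and this call was lost without WT replicate 1 or 2 or S100a16KO+/- replicate 1 or 2 (0.0507 to 0.0767). The adaptor Shc1 rose from 4.40 ± 0.244 to 5.79 ± 0.196 FPKM (0.39, adjusted p = 0.000506). The kinases Araf, Map2k2 and Mapk3, at 7.33, 10.9 and 7.19 FPKM in WT, did not pass (adjusted p = 0.635, 0.839 and 0.716).

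Genes that FGF signalling is known to induce did not move together. Of 17 tested, 2 rose and 2 fell, with a median log2 fold change of 0.083. The share over all tested genes was 22.8%, so nothing is read from this count. Dusp6, a phosphatase that acts back on ERK, was at 22.3 ± 1.58 FPKM in WT and 23.6 ± 0.986 FPKM in S100a16KO+/- (0.08, edgeR adjusted p = 0.349). The immediate early gene Fos rose from 16.1 ± 0.309 to 29.9 ± 1.93 FPKM (0.89, adjusted p = 5.41e-08), whereas Egr1 fell from 25.2 ± 0.192 to 19.8 ± 0.259 FPKM (-0.36, adjusted p = 0.000315) and Ier2 from 53.4 ± 2.17 to 44.3 ± 2.92 FPKM (-0.28, adjusted p = 0.00182). Ier3 rose from 0.854 ± 0.131 to 1.73 ± 0.278 FPKM (log2 fold change 1.003, adjusted p = 0.0106, but 0.0562 without S100a16KO+/- replicate 2).

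Transcription factors and cofactors known to act on Fgf21 moved in both directions. Of 27 tested, 7 rose and 13 fell, with a median log2 fold change of -0.18. The list itself was not tested. Over all tested genes 22.8% differed, and 32.7% of those with a mean of at least 1 FPKM. By limma on log2 FPKM, 13 of 25 tested factors passed. Nr4a1, an orphan nuclear receptor, rose from 2.16 ± 0.183 to 10.4 ± 1.28 FPKM (2.25, SE 0.09, edgeR adjusted p = 4.29e-10) and the coactivator Ppargc1a from 0.919 ± 0.0543 to 3.598 ± 0.0694 FPKM (1.96, adjusted p = 2.44e-09). Whether either bears on Fgf21 was not tested. Bhlhe40, a repressor of the circadian system, fell from 31.2 ± 1.65 to 17.7 ± 1.197 FPKM (-0.83, adjusted p = 4.64e-08), the bile acid receptor gene Nr1h4 from 64.4 ± 2.87 to 42.2 ± 1.44 FPKM (-0.62, adjusted p = 6.65e-07) and Creb3l3, a liver membrane-bound factor that acts with PPARα, from 87.4 ± 5.60 to 73.6 ± 2.31 FPKM (-0.25, adjusted p = 0.00150). Mlxipl, which encodes ChREBP, was at 49.2 ± 1.13 and 43.7 ± 3.25 FPKM and did not pass (adjusted p = 0.0505). Named after their values were seen, Ppara was at 11.1 and 9.95 FPKM (adjusted p = 0.124) and Atf4 rose from 29.5 ± 0.323 to 37.8 ± 1.07 FPKM (0.35, adjusted p = 0.000366).

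Target genes of the same regulators were counted as well, since Fgf21 belongs to each of these programs. Of 20 tested eIF2α kinases and ATF4 targets, 2 rose and 7 fell, with a median log2 fold change of -0.16. These counts stand beside 22.8% of all tested genes and 32.7% of those with a mean of at least 1 FPKM. The list was not tested. Trib3, a stress-induced pseudokinase, fell from 23.0 ± 1.11 to 7.50 ± 0.607 FPKM (-1.62, edgeR adjusted p = 5.46e-10), Atf3 from 6.95 ± 0.985 to 2.30 ± 0.526 FPKM (-1.60, adjusted p = 1.02e-06) and Gdf15, a stress hormone of the liver, from 41.3 ± 0.623 to 15.1 ± 0.571 FPKM (-1.46, adjusted p = 2.66e-09). Atf5 fell by less, from 148.1 ± 13.1 to 116.4 ± 9.63 FPKM (-0.36, adjusted p = 0.000175). In the opposite direction, Eif2ak3, the kinase PERK, rose from 1.23 ± 0.177 to 3.71 ± 0.417 FPKM (1.59, adjusted p = 3.77e-08) and Cebpb from 61.7 ± 2.46 to 87.1 ± 7.07 FPKM (0.49, adjusted p = 0.00166). Shmt2, a serine enzyme of mitochondria, was at 44.8 and 44.3 FPKM and did not pass (adjusted p = 0.876). In all, 11 of the 20 did not pass. Named after their values were seen, Asns, Psat1, Chac1, Sesn2 and Mthfd2 were among these. Their log2 fold changes were -0.05, 0.18, 0.34, -0.10 and -0.34, with edgeR adjusted p of 0.207 to 0.894.

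All 16 PPARα targets tested passed, 13 lower and 3 higher, with a median log2 fold change of -0.56. Plin2, named after its values were seen, lost its call under 7 of 16 alternatives, both limma fits among them. The share over all tested genes with a mean of at least 1 FPKM was 32.7%, and the list was not tested. Acot1, a thioesterase, fell from 8.20 ± 0.497 to 2.16 ± 0.211 FPKM (-1.93, edgeR adjusted p = 7.09e-10). The fatty acid hydroxylases Cyp4a14 and Cyp4a10 fell from 1804 ± 11.2 to 849.5 ± 2.89 FPKM (-1.09, adjusted p = 1.19e-09) and from 1289 ± 50.8 to 673.3 ± 43.1 FPKM (-0.94, adjusted p = 6.35e-05), and both belong to a family of similar genes whose reads may be split. Acaa1b, a peroxisomal thiolase with the close copy Acaa1a, fell from 199.0 ± 32.0 to 105.6 ± 18.5 FPKM (-0.92, adjusted p = 0.00224), and the fatty acid carrier Fabp1 from 1160 ± 57.5 to 800.0 ± 22.6 FPKM (-0.54, adjusted p = 4.30e-06). The 3 that rose were Angptl4, Pdk4 and Cpt1a, with log2 fold changes of 0.39, 0.89 and 0.44, named after their values were seen.

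Of 15 tested ChREBP targets, 6 rose and 4 fell, with a median log2 fold change of 0.069. Beside this, 32.7% of all tested genes with a mean of at least 1 FPKM differed, and the list was not tested. Fasn, the fatty acid synthase, fell from 24.2 ± 0.903 to 8.16 ± 0.245 FPKM (-1.57, edgeR adjusted p = 2.12e-10) and Gpd1 from 93.6 ± 2.45 to 56.6 ± 0.421 FPKM (-0.73, adjusted p = 1.78e-07). Txnip, a classical sugar-responsive gene, rose from 26.4 ± 2.18 to 48.8 ± 3.64 FPKM (0.88, adjusted p = 2.86e-08) and Me1 from 18.5 ± 0.779 to 25.2 ± 1.06 FPKM (0.44, adjusted p = 3.06e-05). G6pc, which releases glucose from the hepatocyte, rose from 322.7 ± 18.5 to 402.0 ± 32.7 FPKM (0.31, adjusted p = 0.000186). Khk did not pass (adjusted p = 0.389).

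Bile acid genes were followed as well, since FGFR4 with KLB holds back bile acid synthesis. The list also holds transporters and Nr0b2 and is not a readout of that pair alone. Of 7 tested, 3 fell and the other 4 did not pass, with a median log2 fold change of -0.044. Nothing is read from this count, as 32.7% of all tested genes with a mean of at least 1 FPKM differed. Cyp7a1, the rate-limiting enzyme of bile acid synthesis, fell from 50.7 ± 1.005 to 31.5 ± 1.55 FPKM (-0.69, SE 0.06, edgeR adjusted p = 6.12e-07). A link of this fall to Fgfr4 and Klb was not tested. Nr0b2, which encodes the repressor SHP, fell from 34.4 ± 1.07 to 18.0 ± 0.502 FPKM (-0.94, SE 0.06, adjusted p = 9.90e-08). Abcb11, the bile salt export pump, fell from 74.4 ± 6.98 to 60.5 ± 7.04 FPKM (-0.31, adjusted p = 0.00163, but 0.0738 to 0.0746 by limma on log2 FPKM). The bile acid importer Slc10a1 and the synthesis enzymes Cyp27a1 and Cyp8b1, at 490.3, 108.0 and 102.8 FPKM in WT, did not pass (adjusted p = 0.876, 0.217 and 0.675).

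**Figure D4:**
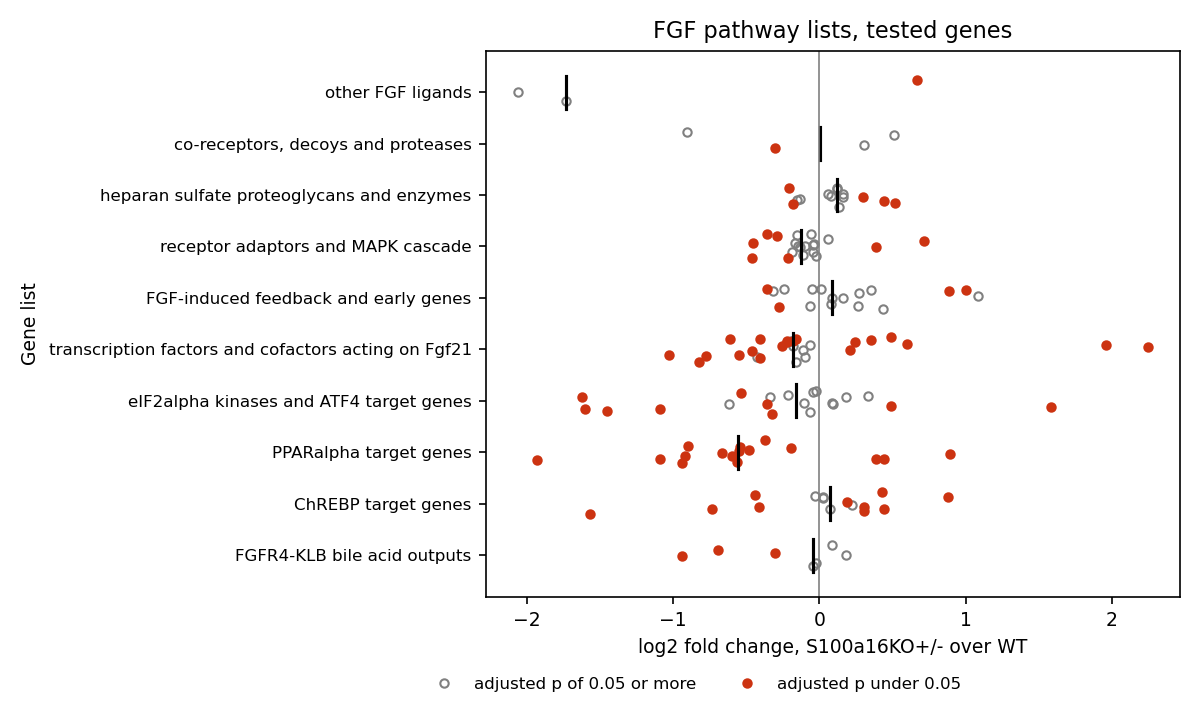
Log2 fold change (S100a16KO+/- over WT) of each tested gene of the 10 gene lists, with filled points for an edgeR adjusted p under 0.05, open points for the rest and a bar at the median of the list. PPARα targets have the bar at -0.56 and all 16 points filled, whereas the FGF-induced genes lie on both sides of 0.

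Over the 10 lists, 26 of 143 tested genes rose and 50 fell, with a median log2 fold change of -0.10. As shares of each direction these counts stand beside 11.6% higher and 11.2% lower over all tested genes. Among tested genes with a mean of at least 1 FPKM, 32.7% differed in either direction. The lists were chosen with earlier results of these data known, and no test of them was made.

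Position was examined around Fgf21, since the choice of genes had not used it. Within 100 kb of Fgf21 on chromosome 7, 20 other genes were in the table, 14 were tested, 2 rose and 2 fell, beside 11.6% higher and 11.2% lower over all tested genes. Ppp1r15a, a stress-induced regulator of eIF2α dephosphorylation, rose from 3.59 ± 0.0942 to 5.34 ± 0.153 FPKM (0.57, edgeR adjusted p = 0.000322) and Rasip1, a gene of blood vessel cells, from 1.25 ± 0.0944 to 2.31 ± 0.248 FPKM (0.87, adjusted p = 0.000195). Bcat2, an enzyme of branched-chain amino acid breakdown, went from 7.95 ± 0.867 to 6.83 ± 0.889 FPKM (-0.23, adjusted p = 0.0465, lost without WT replicate 2 or 3 or S100a16KO+/- replicate 1 or 2 at 0.115 to 0.185). Dbp, a clock output factor, went from 18.9 ± 0.880 to 16.5 ± 0.837 FPKM (-0.20, adjusted p = 0.0159, but 0.0752 without WT replicate 3 and 0.0734 without S100a16KO+/- replicate 1). No tested neighbour had a difference of the size of that of Fgf21, the widest being 1.48 on the log2 scale for the scarce Mamstr, which did not pass (adjusted p = 0.0908).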

How the data were processed

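Poly(A) RNA of primary hepatocytes was sequenced from both genotypes after alcohol feeding (3 libraries each) by a strand-specific method. The authors deposited 1 table with estimated counts, not scaled for depth, and FPKM values, scaled by the authors for length and depth. The submitters' processing notes name mm10, cutadapt 1.9, HISAT2 2.0.4, UMI-tools, StringTie 1.3.4d, DESeq2 and edgeR. Estimated counts have an excess at 4, so the limit set by a count of 0 was taken as 12 counts per library, that is 3 fragments (0.167 to 0.177 CPM), for counting error only. Counts were rounded and fitted over all 6 libraries with edgeR 4.0.16 (R 4.3.3; TMM, filterByExpr, robust quasi-likelihood, two-sided, Benjamini-Hochberg over 15957 genes). The fit, DESeq2 1.42.0 and limma 3.58.1 were checked on simulated data. CPM values are TMM-scaled.

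The genes and lists were chosen with earlier results of these data known. Named were the 7 genes, in each list the 3 tested genes with the highest FPKM and up to 4 called genes with the largest change (mean of at least 1 FPKM), the 5 genes nearest to Fgf21 and to Klb by log2(CPM + 0.5) centred on WT (mean CPM of at least 1), and called neighbours of Fgf21. Alternatives were other scalings, filters and tools, counts divided by 4, the replicate block and leaving out libraries. Leaving out both libraries that stood apart was chosen after seeing the data. Gene positions match GENCODE M21. Values of some genes that meet this rule are not reported here.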

Additional observations from a re-analysis of the deposited data

How the results depend on the processing

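The direction held for Fgf21, Fgf1, Fgfr1, Fgfr2, Fgfr3 and Fgfr4 under every alternative run for them (Fgfr1 was not tested by limma, as its mean FPKM is under 1). Leaving out 1 library at a time, log2 fold changes ran from -3.93 to -3.68 for Fgf21, -0.58 to -0.49 for Fgf1, 0.0011 to 0.037 for Klb, 0.97 to 1.22 for Fgfr1, 1.06 to 1.24 for Fgfr2, -1.18 to -1.03 for Fgfr3 and -0.10 to -0.02 for Fgfr4. Without both libraries that stood apart it was -0.019 for Klb and 0.90 for Fgfr1. On log2(FPKM + 1), a scale that shrinks low genes, limma gave 0.66 for Fgfr2 and -0.80 for Fgfr3. Over the whole table limma called 2188 genes with a pseudocount of 1 and 2167 with 0.1, among 9054 tested in place of 15957, and leaving out a library gave 2734 to 3302. In the lists, both limma fits called 4 genes of the adaptors and MAPK cascade and 13 of the transcription factors, and tested no other FGF ligand, so 0 were called there. With a library left out, calls ran from 0 to 1 for other FGF ligands, 0 to 1 for co-receptors, 3 to 5 for heparan sulfate genes (3 without WT replicate 3) and 4 to 6 for adaptors (4 without WT replicate 1). Without both libraries that stood apart, 0 other FGF ligands were called (Fgf2, adjusted p = 0.222 by edgeR). The cause of these shifts was not tested. Of the 40 called list genes that the naming rule picked, 8 lost the call under at least 1 alternative.

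Same-numbered libraries of the genotypes had correlations of -0.05, -0.02 and 0.05 between their deviations, so the numbers were not taken to pair them. With the replicate block, 3082 genes were called, the log2 fold change of Fgf21 was -3.80, 3 heparan sulfate genes were called, and 0 other FGF ligands (Fgf2, adjusted p = 0.0932 by edgeR). Depth limits Fgfr1 and the scarce ligands most.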
